A study of Mus musculus with 14 samples.

Results

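The genes described here are 10 genes of plasma cell identity and of the secretory pathway (Xbp1, Prdm1, Irf4, Sdc1, Tnfrsf17, Mzb1, Derl3, Txndc5, Fkbp11 and Creld2), chosen by name from the 52550 genes of the count table. All 10 were found and had counts in each of the 14 libraries. Total RNA depleted of ribosomal RNA was sequenced from mouse bone marrow cells of the C57BL/6 strain, taken from femur and tibia at an age of 8 to 20 weeks. The cells had been enriched for hematopoietic stem cells and progenitors (HSPCs) with a commercial set, and 4 such samples were wild-type (WT) and 4 carried a deletion of Mir139 (Mir139KO). The other 6 samples were cultures derived from WT HSPCs that expressed the leukemia fusion gene MLL-AF9. The fusion was delivered by the retrovirus pMSCV-MLL-AF9-neo in 3 cultures (replicates 1 to 3, neo) and by pMSCV-MLL-AF9-puro in the other 3 (replicates 4 to 6, puro). MLL-AF9 cells had been expanded in the cytokines SCF, GM-CSF, IL-6 and IL-3, selected on Neomycin or Puromycin and replated in methylcellulose, and no sample was labelled as cultured HSPCs without MLL-AF9, so transformation and culture cannot be told apart. The labels do not say for each HSPC sample whether it was lysed directly or cultured, nor that replicates came from separate mice or cultures, so p-values measure only the spread between these samples, which may be technical.

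Plasma cells are the antibody-secreting end stage of the B lymphoid lineage. Irf4 and Prdm1 encode transcription factors that close down the B cell program, and Xbp1 encodes a transcription factor that expands the endoplasmic reticulum (ER) and its folding machinery after its mRNA is spliced by the ER stress sensor IRE1 (Ern1). The same genes also work outside plasma cells, since Irf4 and Xbp1 are used in dendritic cells and Xbp1 in eosinophils and many other secretory cells. Bone marrow is a home of long-lived plasma cells, and the HSPC samples were enriched for progenitors but not purified.

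Of the 10 genes, 9 had a promoter window of 300 bases in the RefSeq table for build GRCm38.p6, 12 windows in all, which span 250 bases before and 50 after a start site. The windows were searched on both strands for 3 motifs of the unfolded protein response, the set of genes switched on when unfolded proteins collect in the ER. The motifs were the ER stress element, which is CCAAT and CCACG spaced 9 bases apart, the ER stress element II, which is ATTGG and CCACG spaced 1 base apart, and the UPR element core, which is TGACG followed directly by TGG. The ER stress element was in the windows of Derl3 and Creld2 and in 0.119% of all 32851 windows. The core was in a window of Txndc5, whose first 250 bases lie within annotated exons, and in 0.676% of all windows. The ER stress element II was in 0.0365% of all windows and in none of these genes. The 250 bases upstream of Derl3 and Creld2 are shown because both genes were lower in MLL-AF9 cells, as described below. They are printed 5′ to 3′ on the strand of the gene, at chr10:75893148-75893397 (plus strand) for Derl3 and chr15:88819396-88819645 (plus strand) for Creld2. The capitals mark the ER stress element, which both genes hold on the reverse strand, from 156 to 138 bases before the start of Derl3 and from 126 to 108 bases before that of Creld2.
Derl3: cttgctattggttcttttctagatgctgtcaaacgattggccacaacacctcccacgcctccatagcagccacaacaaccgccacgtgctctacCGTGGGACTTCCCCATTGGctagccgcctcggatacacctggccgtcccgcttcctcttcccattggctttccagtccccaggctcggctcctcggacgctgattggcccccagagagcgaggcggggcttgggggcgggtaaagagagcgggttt
Creld2: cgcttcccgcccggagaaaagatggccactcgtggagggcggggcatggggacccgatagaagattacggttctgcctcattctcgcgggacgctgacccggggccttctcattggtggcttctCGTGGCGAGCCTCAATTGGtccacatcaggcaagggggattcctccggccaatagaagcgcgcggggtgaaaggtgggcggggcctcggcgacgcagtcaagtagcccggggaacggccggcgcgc

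Total counts were 35016668 to 45877994 per library. A single gene, Gm26917, took 16.99 to 35.44% of the counts in HSPC libraries and 7.55 to 10.41% in MLL-AF9 libraries. Each HSPC genotype held 2 libraries under 25% (low-share: WT replicates 1 and 2, Mir139KO replicates 2 and 3) and 2 over 25% (high-share: WT replicates 3 and 4, Mir139KO replicates 1 and 4). The targeted gene Mir139 was listed at 0 in all 14 libraries, so it could not check the genotype labels. Markers of several marrow cell types were higher in the HSPC than in the MLL-AF9 libraries. The sum of 8 erythroid genes was 1117 to 1859 normalized CPM in HSPCs and 2.03 to 15.4 in MLL-AF9 cells, and that of 8 T and NK cell genes was 100 to 197 against 2.55 to 12.1. The sum of 8 stem and progenitor genes was 398 to 593 in HSPCs and 174 to 983 in MLL-AF9 cells. Normalized CPM are counts scaled by library size and TMM factors, and 3 counts correspond to 0.0544 to 0.129 normalized CPM.

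In MLL-AF9 cells the surface and most ER genes of the plasma cell set were lower than in WT HSPCs, whereas Xbp1 was higher. Of the 10 genes, 8 were called lower and 1 was called higher (edgeR quasi-likelihood test, Benjamini-Hochberg adjusted p under 0.05 over 17077 genes). Mzb1 and Tnfrsf17, among the 8, had too few counts in MLL-AF9 cells to be tested without their HSPC libraries. Among all genes tested 29.4% were called lower and 32.8% higher. The median log2 fold change was -2.26 for the 10 genes and 0.13 for all genes tested. The WT and MLL-AF9 libraries did not overlap, with MLL-AF9 lower, for 6 of the 10 genes and for 24.6% of all genes tested. These are bulk libraries, so fewer cells of a type and less RNA per cell cannot be told apart.

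**Figure D1:**
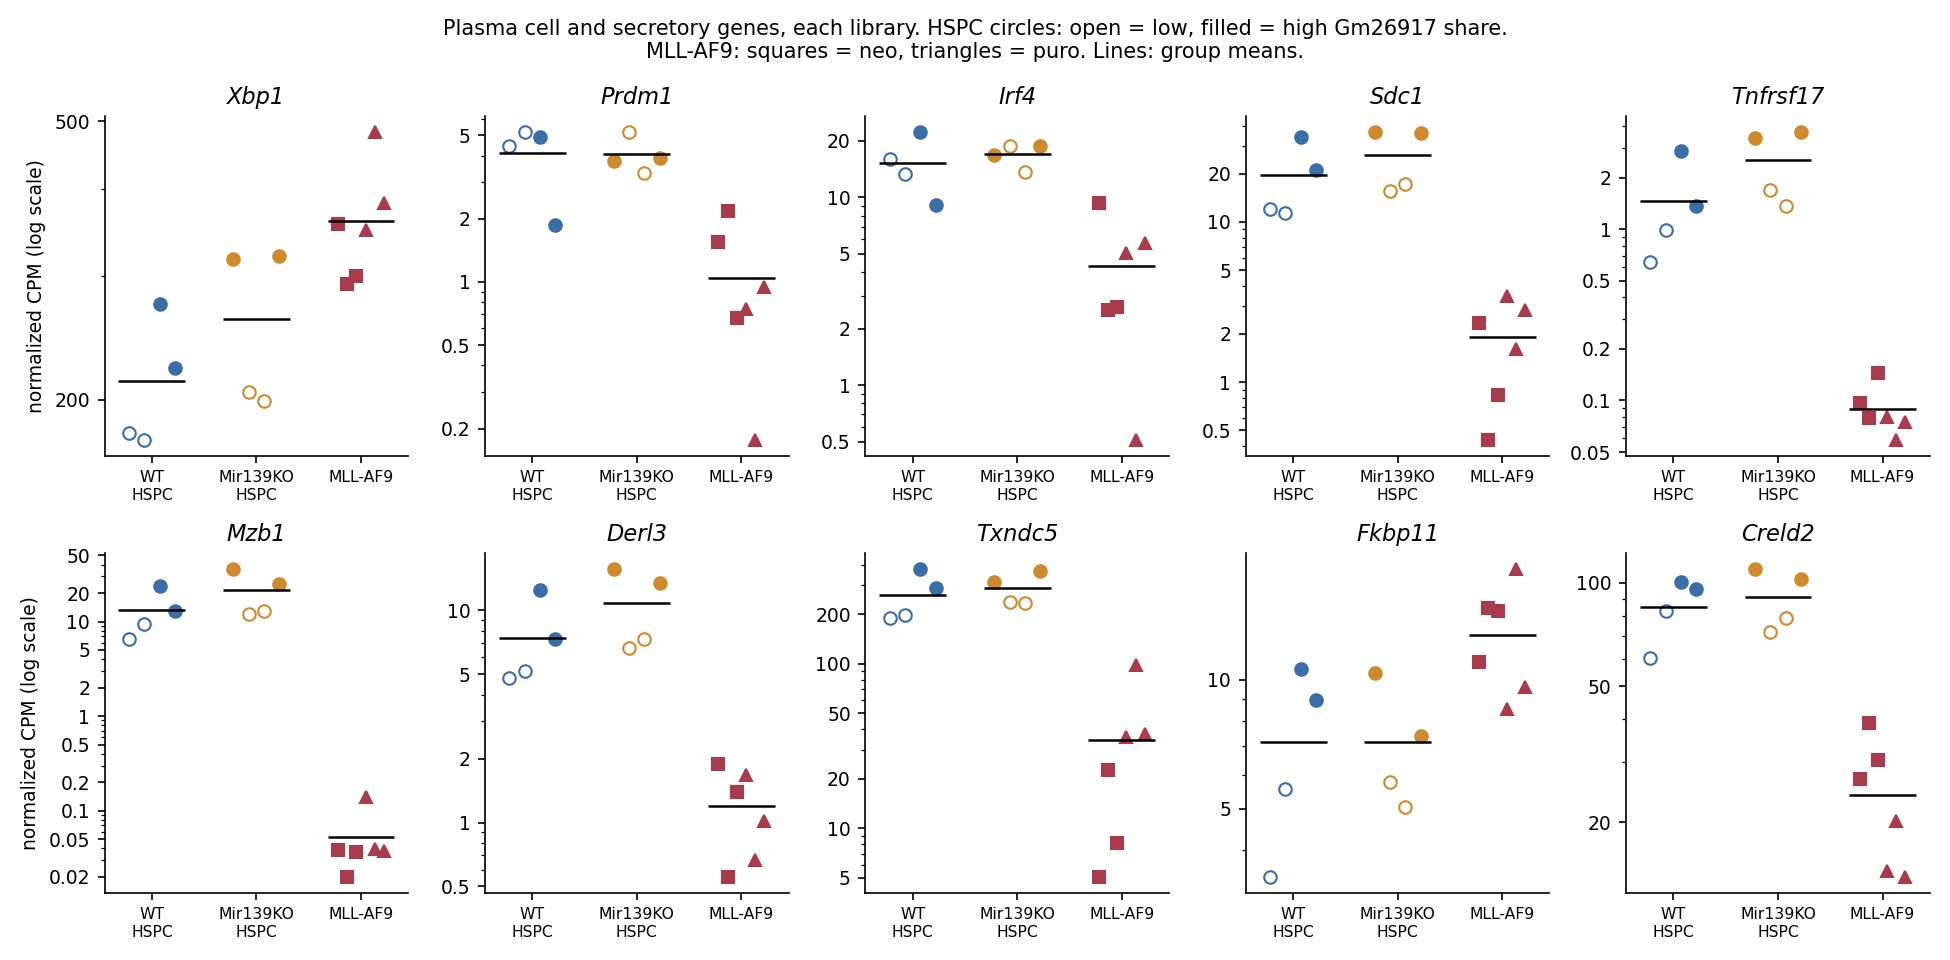
Normalized CPM (log scale) of the 10 genes in each library, by group. Open and filled circles are HSPC libraries with a low and a high share of counts on Gm26917, squares are neo and triangles puro MLL-AF9 cultures, and lines are group means. Sdc1, Tnfrsf17, Mzb1, Derl3, Txndc5 and Creld2 lie below both HSPC groups in all 6 MLL-AF9 cultures.

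Among the transcription factors, Xbp1 (chromosome 11, 5520659 to 5525893) was the most abundant gene of the set per exon length. In the order of replicates 1 to 4, used throughout, Xbp1 had normalized CPM of 179, 175, 274 and 222 in WT HSPCs and of 318, 205, 199 and 321 in Mir139KO HSPCs. In MLL-AF9 cells they ran from 293 through a median of 352 to 483. All 6 MLL-AF9 values were above the WT values, but the lowest of them were below the highest Mir139KO values. Xbp1 rose by 0.75 ± 0.25 (log2 fold change ± SE) against WT HSPCs (adjusted p = 0.0195, edgeR). The call was lost without WT replicate 1 (adjusted p = 0.0518) or WT replicate 2 (adjusted p = 0.0647), with neo cultures only (log2 fold change 0.60, adjusted p = 0.135) and against the high-share WT libraries alone (log2 fold change 0.43, adjusted p = 0.136). With the GC offset Xbp1 had 1.34 (adjusted p = 0.000263).

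Prdm1 (chromosome 10, 44437177 to 44528501), which encodes Blimp-1, was low in all groups. Normalized CPM were 4.45, 5.19, 4.91 and 1.86 in WT HSPCs and 3.79, 5.20, 3.30 and 3.91 in Mir139KO HSPCs. In MLL-AF9 cells they ran from 0.176 through a median of 0.843 to 2.17, so the groups overlapped at WT replicate 4 and MLL-AF9 replicate 2. Prdm1 fell by 1.94 ± 0.55 (log2 fold change ± SE, adjusted p = 0.00868, edgeR). Irf4 (chromosome 13, 30749226 to 30766976) had normalized CPM of 16, 13.4, 22.4 and 9.14 in WT HSPCs and 16.8, 18.7, 13.7 and 18.7 in Mir139KO HSPCs. In MLL-AF9 cells Irf4 ran from 0.508 through a median of 3.83 to 9.37 and the highest culture, replicate 1, was above WT replicate 4. Irf4 fell by 1.81 ± 0.59 (adjusted p = 0.0173, edgeR). With library sizes set by total counts only, the median of all genes shifted from 0.13 to 0.67, and neither Prdm1 (log2 fold change -1.42, adjusted p = 0.0613) nor Irf4 (-1.18, adjusted p = 0.133) was called.

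Sdc1 and Tnfrsf17 encode surface proteins used to recognize plasma cells, the heparan sulfate proteoglycan CD138 and the survival receptor BCMA. Sdc1 (chromosome 12, 8771323 to 8793715) had normalized CPM of 12.0, 11.4, 33.8 and 21 in WT HSPCs and 36.6, 15.7, 17.3 and 35.9 in Mir139KO HSPCs. In MLL-AF9 cells Sdc1 ran from 0.434 through a median of 1.98 to 3.44, below every HSPC library. Sdc1 fell by 3.32 ± 0.55 on the log2 scale against WT HSPCs (adjusted p = 0.000336, edgeR). Tnfrsf17 (chromosome 16, 11313812 to 11320074) had normalized CPM of 0.645, 0.996, 2.87 and 1.37 in WT HSPCs and 3.40, 1.69, 1.37 and 3.71 in Mir139KO HSPCs. In MLL-AF9 cells Tnfrsf17 had 3 to 8 counts per library (0.0586 to 0.145 normalized CPM), close to the level of 3 counts. Tnfrsf17 fell by 3.51 ± 0.43 (log2 fold change ± SE, adjusted p = 4.78e-05, edgeR). The ratio of summed counts per library size, WT over MLL-AF9, was 14.8, with a 95% exact interval of 9.93 to 22.9 that covers counting error only.

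The ER genes of the set showed the largest difference in Mzb1, a cofactor of antibody assembly and secretion in B and plasma cells (chromosome 18, 35647267 to 35649367). HSPC libraries had normalized CPM of 6.61, 9.50, 23.6 and 12.8 in WT HSPCs and 36.1, 12.1, 12.9 and 25 in Mir139KO HSPCs. In MLL-AF9 replicates 1 to 6 only 2, 1, 2, 7, 2 and 2 counts were assigned to it. Mzb1 fell by 7.12 ± 0.53 (log2 fold change ± SE, adjusted p = 1.82e-06, edgeR). The fitted fold changes of Mzb1 and Tnfrsf17 depend on the prior count of 2, and both genes passed the filter on low counts only through their HSPC libraries. From 1780 counts in WT HSPCs and 16 in MLL-AF9 cells the ratio of summed counts per library size was 234, with a 95% exact interval of 144 to 410.

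Derl3 (chromosome 10, 75893413 to 75895941) encodes a derlin of the ER membrane that takes part in the removal of misfolded proteins. Its normalized CPM were 4.78, 5.19, 12.5 and 7.32 in WT HSPCs and 15.7, 6.63, 7.37 and 13.5 in Mir139KO HSPCs, against 0.552 to 1.88 (median 1.21) in MLL-AF9 cells. No MLL-AF9 culture reached the lowest HSPC library, and Derl3 fell by 2.59 ± 0.44 on the log2 scale against WT HSPCs (adjusted p = 0.000387, edgeR). Txndc5 (chromosome 13, 38500079 to 38528824) encodes a protein disulfide isomerase of the ER. Of its exon bases 88.1% lie outside the exons of other genes of the table, and 91.6% of its span lies outside the span of other genes. Its normalized CPM were 191, 198, 378 and 288 in WT HSPCs and 314, 239, 234 and 368 in Mir139KO HSPCs. In MLL-AF9 cells Txndc5 ran from 5.03 through a median of 29.3 to 98.5, and the highest culture was still below the lowest HSPC library. Txndc5 fell by 2.95 ± 0.65 (log2 fold change ± SE, adjusted p = 0.00213, edgeR), and by more without MLL-AF9 replicate 5 or in the neo cultures alone, where the fold change was lowest over all settings tried at -4.45.

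Creld2 (chromosome 15, 88819646 to 88826683) encodes an ER chaperone that is induced by ER stress. Levels were 60.5, 82.9, 101 and 96.3 normalized CPM in WT HSPCs and 110, 72.1, 78.9 and 103 in Mir139KO HSPCs. In MLL-AF9 cells Creld2 ran from 13.8 through a median of 23.5 to 39.0. Creld2 fell by 1.83 ± 0.32 (log2 fold change ± SE, adjusted p = 0.000485, edgeR). Fkbp11 (chromosome 15, 98724366 to 98728198), a peptidyl-prolyl isomerase of the ER that is high in secretory tissues, went apart from the other ER genes. Its normalized CPM were 3.45, 5.56, 10.6 and 8.99 in WT HSPCs, 10.4, 5.77, 5.05 and 7.38 in Mir139KO HSPCs and 8.53 to 18.2 (median 12.8) in MLL-AF9 cells. Its log2 fold change against WT HSPCs was 0.83 ± 0.36 and did not pass (adjusted p = 0.0632, edgeR). Fkbp11 passed without WT replicate 3 (1.05, adjusted p = 0.0386), against the low-share WT libraries alone (1.44, adjusted p = 0.0142) and with an offset for GC content (1.54, adjusted p = 0.0023). It was not called against the high-share WT libraries alone. Over the 24 other settings tried its log2 fold change ran from 0.27 to 1.54, with adjusted p of up to 0.473.

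The same 6 MLL-AF9 cultures were set against Mir139KO HSPCs, so this comparison shares its MLL-AF9 samples with the one above. Of 16953 genes tested 31.9% were called lower and 37.3% higher. Of the 10 genes 8 were called lower and 1 higher, and for 8 the groups did not overlap with MLL-AF9 lower, as for 28.3% of all genes tested. Log2 fold changes were -3.76 ± 0.52 for Sdc1 (adjusted p = 5.25e-05), -7.80 ± 0.50 for Mzb1 (adjusted p = 2.74e-07) and -3.07 ± 0.64 for Txndc5 (adjusted p = 0.00103, edgeR). Mzb1 and Tnfrsf17 again passed the filter on low counts only through their HSPC libraries. Fkbp11 was called here (log2 fold change 0.82 ± 0.30, adjusted p = 0.0292, edgeR). That call was lost without Mir139KO replicate 2, 3 or 4 or MLL-AF9 replicate 5, where adjusted p were 0.0771, 0.0953, 0.0666 and 0.0551. It was also lost against the high-share Mir139KO libraries (0.45, adjusted p = 0.261) and with puro cultures only (0.77, adjusted p = 0.0899). Xbp1 had a log2 fold change of 0.45 ± 0.24 that did not pass (adjusted p = 0.105, edgeR), and 1.12 with the GC offset, where it passed (adjusted p = 0.00056).

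**Figure D2:**
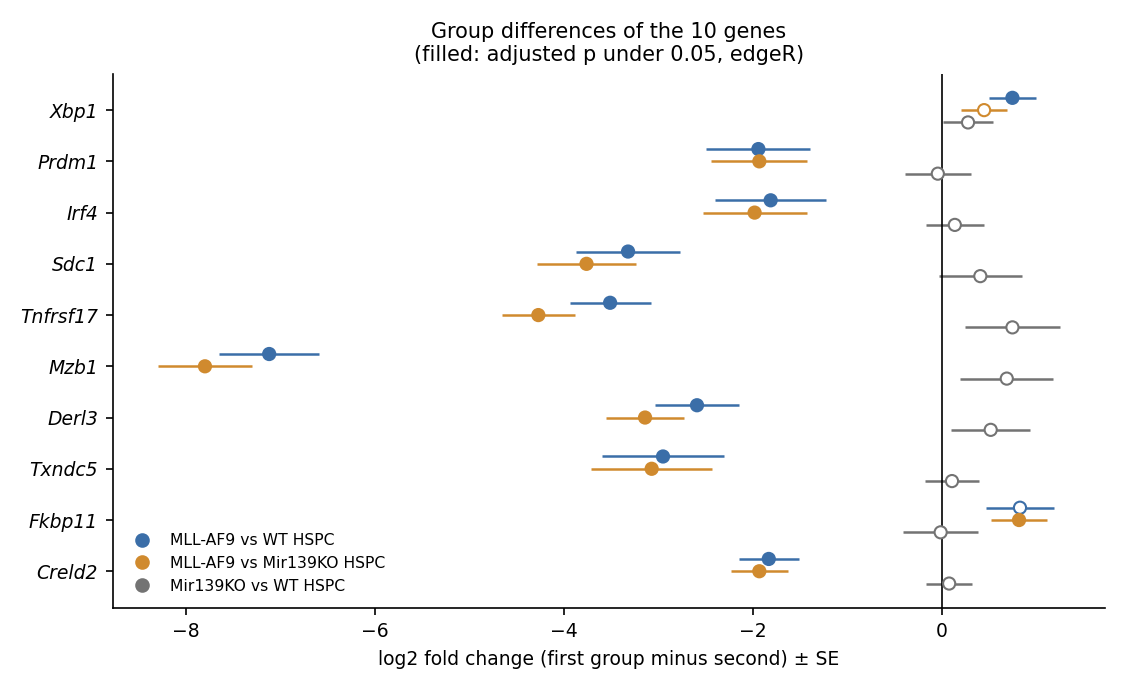
Log2 fold changes (first group minus second) with their SE for the 10 genes in 3 comparisons, which share groups. Filled points have an adjusted p under 0.05 in edgeR. MLL-AF9 cells are below both HSPC groups for 8 genes, from -1.81 for Irf4 to -7.80 for Mzb1, and the Mir139KO and WT difference was called for none.

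The order of levels per exon length also differed between the groups. In WT HSPCs Xbp1 (65.4 ± 14.3 normalized CPM per kb, SD, n = 4), Creld2 (62.4 ± 13.3) and Txndc5 (58.7 ± 19.5) lay within 1 SD of each other. They were followed by Mzb1 at 10.8 ± 6.12 and by Sdc1 at 5.13 ± 2.75, Derl3 at 3.74 ± 1.78, Irf4 at 3.11 ± 1.13, Fkbp11 at 2.64 ± 1.19, Tnfrsf17 at 1.81 ± 1.2 and Prdm1 at 0.735 ± 0.274 normalized CPM per kb. From Mzb1 down, neighbors in this order differed by less than the larger of their SDs, while Txndc5 and Mzb1 differed by more. In MLL-AF9 cells Xbp1 stood at 111 ± 21.2, Creld2 at 17.6 ± 7.18, Txndc5 at 7.70 ± 7.59 and Fkbp11 at 4.71 ± 1.35 normalized CPM per kb (SD, n = 6). The other 6 genes were under 1 normalized CPM per kb in MLL-AF9 cells, from 0.876 ± 0.636 for Irf4 to 0.0428 ± 0.0363 for Mzb1. Creld2 and Txndc5 there differed by more than either SD, and Txndc5 and Fkbp11 by less than that of Txndc5. Of the genes with no base outside the span of other genes, 99.3% were at 0 in all libraries, against 28.9% of the rest, so reads may have been counted over whole gene spans. Levels per exon length, and this order, may then include reads from introns.

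The calls on the lower genes were largely kept when the HSPC reference was changed. With the GC offset 8 genes were called lower and 2 higher, where 26.6% and 31.5% of all genes were. Against the low-share WT libraries 7 were called lower and 2 higher, beside 20.8% and 21% of all genes, and Irf4 was not called (-1.80, adjusted p = 0.0832). Against the high-share WT libraries 6 were called lower and 0 higher, beside 29.8% and 33% of all genes, and Prdm1 (-1.77, adjusted p = 0.0574) and Irf4 (-1.96, adjusted p = 0.0548) were not called. Over the 24 other settings tried for the MLL-AF9 and WT comparison, Sdc1 ran from -3.93 to -2.56, Tnfrsf17 from -4.15 to -2.78, Mzb1 from -8.10 to -6.42, Derl3 from -3.10 to -1.67, Txndc5 from -4.45 to -2.19 and Creld2 from -2.38 to -1.02 on the log2 scale. These 6 genes were called lower in each of those settings, with adjusted p of at most 0.036. Among them, Mzb1 and Tnfrsf17 entered the tests through their counts in HSPC libraries.

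**Figure D3:**
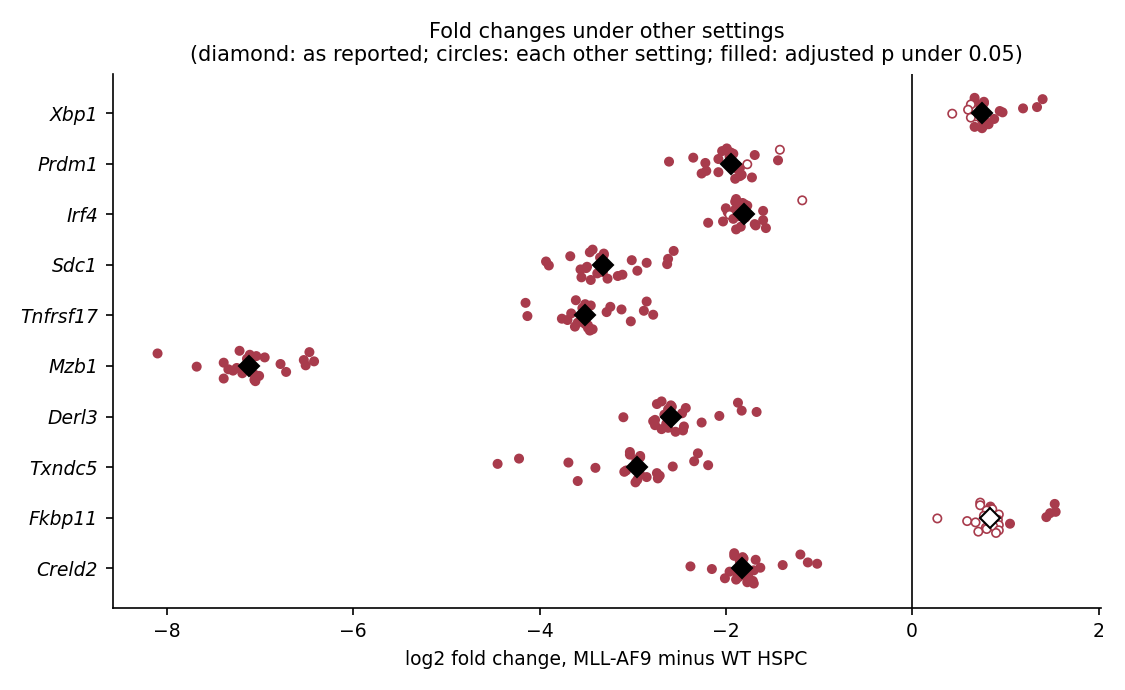
Log2 fold change of MLL-AF9 cells against WT HSPCs for the 10 genes as reported (diamonds) and under each of 24 other settings (circles). Filled symbols have an adjusted p under 0.05. No gene changes sign, and open symbols occur for Xbp1, Prdm1, Irf4 and Fkbp11.

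The HSPC libraries differed among themselves in these genes along with the share of counts on Gm26917. In the 4 high-share libraries Xbp1, Sdc1, Txndc5, Fkbp11 and Creld2 were above all 4 low-share libraries, so 5 of the 10 genes did not overlap, as did 30.9% of the 15056 genes tested in HSPCs with the high-share libraries higher. This holds for normalized CPM, with TMM factors of 0.6139 to 0.66 in high-share and 0.9658 to 1.1 in low-share libraries. In CPM by total counts alone each of these 5 genes overlapped. There Xbp1 had 146 to 211 in high-share and 191 to 205 in low-share libraries. Sdc1 had 13.9 to 23.5 against 12.5 to 16.7, and Creld2 63.6 to 67.4 against 66.5 to 90.6. In normalized CPM Sdc1 was 2.25 times and Fkbp11 1.88 times as high in high-share libraries. Mzb1, Tnfrsf17 and Derl3 had ratios of 2.37, 2.42 and 2.05 with overlapping ranges, whereas Irf4 (1.09) and Prdm1 (0.798) stayed near 1. Jchain, which encodes the joining chain of secreted IgM and IgA, went the other way, with 224 to 321 normalized CPM in low-share and 67.7 to 216 in high-share libraries. The transcript GC content was 51.2 to 57.3% for the 8 genes with ratios above 1.3, 46.3% for Prdm1, 47.6% for Irf4 and 38.2% for Jchain, beside a median of 49.7% over tested genes. The part of base composition in the difference between the 2 kinds of library was not tested for single genes.

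**Figure D4:**
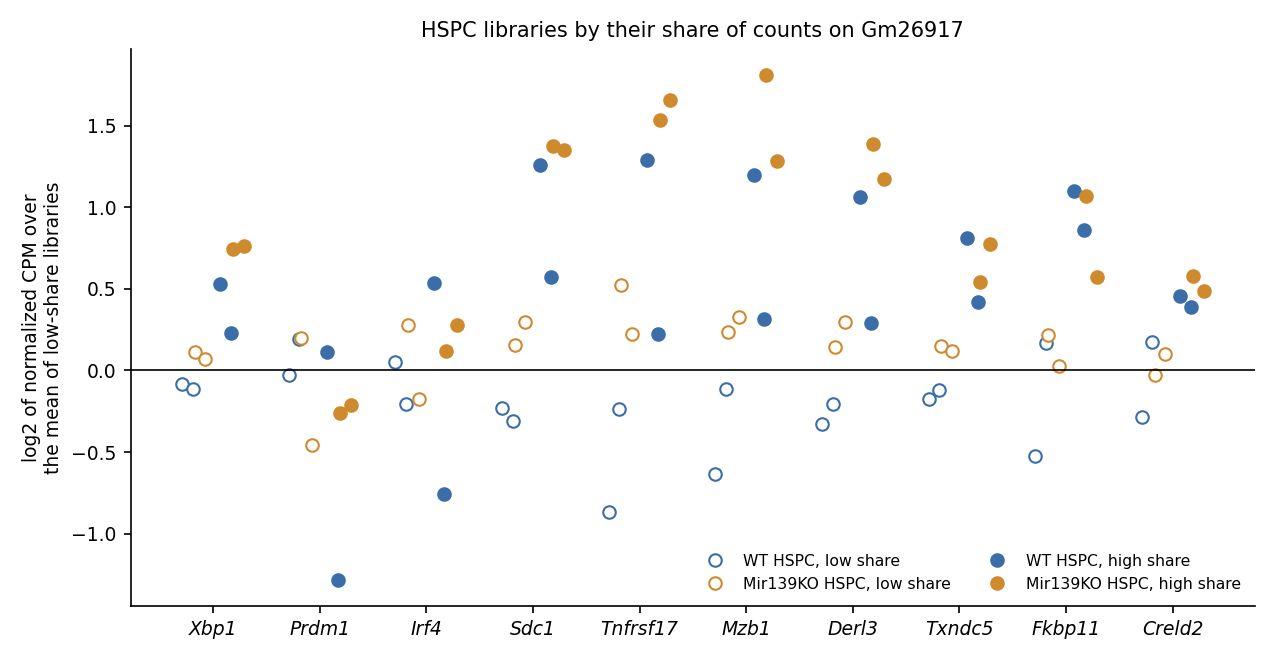
Log2 of each HSPC library's normalized CPM over the mean of the 4 low-share libraries, for the 10 genes. Open circles are low-share and filled circles high-share libraries, blue for WT and orange for Mir139KO. Sdc1, Tnfrsf17, Mzb1 and Derl3 show the largest spread, and Prdm1 and Irf4 show no common shift.

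Over the 8 HSPC libraries Xbp1, Sdc1, Mzb1, Derl3, Txndc5, Fkbp11 and Creld2 rose and fell together, with Pearson r of log2 CPM from 0.77 (Xbp1 and Fkbp11) to 0.99 (Mzb1 and Derl3). Prdm1 and Irf4 had r = 0.78 with each other, while Prdm1 had r of -0.30 to -0.06 and Irf4 of 0.06 to 0.45 with those 7 genes. The libraries share the 2 levels of the Gm26917 share and of the TMM factors that scale the CPM, so these are descriptions of 8 libraries and not tests. Among the 11107 genes whose log2 CPM averaged 1 or more in HSPCs, the genes most like Irf4 outside the set were the immunoglobulin variable segment Igkv4-72 (r = 0.963), the B cell coactivator Pou2af1 (r = 0.916) and the variable segment Ighv6-6 (r = 0.905), whose reads may be split among near-identical segments. Those most like Prdm1 were Proz (r = 0.889), Dusp3 (r = 0.839) and Igkv4-72 (r = 0.822). The nearest gene was Smad7 for Mzb1 (r = 0.990) and for Derl3 (r = 0.988), Kcnk12 for Sdc1 (r = 0.989), Pigv for Xbp1 (r = 0.980), Nckap5l for Txndc5 (r = 0.989), Pear1 for Fkbp11 (r = 0.998) and Reep2 for Creld2 (r = 0.984). Over the 6 MLL-AF9 libraries only Xbp1, Irf4, Txndc5, Fkbp11 and Creld2 reached that level. There their r ran from -0.83 (Irf4 and Fkbp11) to 0.65 (Xbp1 and Txndc5). The nearest genes included Il3ra (r = 0.992), the derlin Derl1 (r = 0.992) and Hinfp (r = 0.986) for Xbp1, Rpl28 for Txndc5 (r = 0.997) and Asph for Creld2 (r = 0.997). These are the highest r among 11236 genes over 6 libraries, of which replicates 4 and 6 were nearly alike, so they too are descriptions and not tests.

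Mir139KO and WT HSPCs were compared to ask what loss of Mir139 does in HSPCs before transformation. None of the 10 genes was called, and 0% of 15056 genes were (edgeR). Of those, 86 genes had an unadjusted p under 0.05, and DESeq2 called 0. Chance alone would put about 1 in 20 of the genes tested under 0.05, so the p-values ran high. The lack of calls is therefore not evidence of no difference, and the cause of the high p-values was not tested. The log2 fold changes of the 10 genes ran from -0.04 ± 0.35 for Prdm1 to 0.75 ± 0.50 for Tnfrsf17, with Mzb1 at 0.69 ± 0.49, Derl3 at 0.52 ± 0.42, Sdc1 at 0.41 ± 0.44 and Xbp1 at 0.28 ± 0.26. Each adjusted p was 1. Within the low-share libraries and again within the high-share libraries, both Mir139KO samples were above both WT samples for 5 of the 10 genes (Xbp1, Sdc1, Mzb1, Tnfrsf17 and Derl3), a pattern noticed in the values. It held for 2.93% of all genes tested. The 5 genes are not separate observations, since Xbp1, Sdc1, Mzb1 and Derl3 correlated at r of 0.95 to 0.99 over the 8 HSPC libraries. Of other plasma cell genes, Jchain showed the pattern only in high-share and Igha only in low-share libraries. Ighm and Pou2af1 overlapped between the genotypes in both classes. With the share class as a covariate Mzb1 had a log2 fold change of 0.67 ± 0.22, Tnfrsf17 of 0.77 ± 0.26, Sdc1 of 0.43 ± 0.15, Derl3 of 0.51 ± 0.18 and Xbp1 of 0.26 ± 0.10 in edgeR. All 5 had an adjusted p of 0.995, and no gene of the table was called in that fit.

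The neo and puro cultures were compared because both vectors were pooled above. Vector, drug and culture cannot be told apart. None of the 10 genes was called, where 0.873% of 16503 genes were (edgeR), and Mzb1 and Tnfrsf17 were too low to be tested. Txndc5 had normalized CPM of 5.03, 22.7 and 8.08 in neo and 36.0, 98.5 and 37.3 in puro cultures. Its log2 fold change, puro over neo, was 2.24 ± 0.66 (adjusted p = 0.203, edgeR). The gene was called by DESeq2 (adjusted p = 0.0122) and with all 14 samples in 1 fit (adjusted p = 0.0267). Creld2 went the other way, with 26.7, 39.0 and 30.4 in neo and 14.4, 20.2 and 13.8 in puro cultures (log2 fold change -0.99 ± 0.24, adjusted p = 0.135, edgeR), and was called by DESeq2 (adjusted p = 0.00295). Hspa5, which encodes the ER chaperone BiP and is not in the set, was called lower in puro cultures, at 406 ± 28.1 against 865 ± 90.7 normalized CPM (SD, n = 3; log2 fold change -1.09 ± 0.16, adjusted p = 0.0409, edgeR). That call was lost without replicate 1, 2, 3, 4 or 6 (adjusted p = 0.0805, 0.134, 0.149, 0.26 and 0.246), with the GC offset (0.0566) and with total counts only (0.0521). Puro replicates 4 and 6 were more alike than any other pair of MLL-AF9 cultures (chi-square per degree of freedom 8.33, against 56.4 to 374), and with both summed into 1 sample Hspa5 was not called (adjusted p = 0.255). The 6 other members tested had adjusted p of 0.487 to 0.922, with log2 fold changes from -1.16 ± 0.71 for Prdm1 to 1.11 ± 0.68 for Sdc1.

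Other genes of plasma cells and of the secretory pathway were described from lists, again for MLL-AF9 cells set against WT HSPCs. The lists were chosen with earlier results of these data known, and their counts are to be read beside 29.4% of all genes lower and 32.8% higher. Of 10 immunoglobulin constant genes 8 were tested and all 8 were lower, with a median log2 fold change of -10.92, or -11.41 with the 4 genes at 0 in MLL-AF9 cells set to the bound that 3 counts over the group give. Only 1 of the 8 was also tested between neo and puro cultures. The others could pass the filter on low counts only with their HSPC libraries, which favors calls of lower. The sum of the 10 listed genes was 3382 to 10313 normalized CPM in the HSPC libraries and 4.04 to 26.3 in MLL-AF9 libraries, where Igha and Ighg2b were listed at 0 in all 6. Igkc and Iglc1 were listed at 0 in all 14 libraries, and both lie wholly inside other genes of the table. Igha, the constant region of IgA, had 2083 ± 1966 and Ighg2b, of IgG2b, had 275 ± 180 normalized CPM in WT HSPCs (SD, n = 4).

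Of 10 genes listed as other plasma cell genes, 9 were tested, 4 were lower and 4 higher, and the median was 0.21, or -0.82 with the GC offset. Only 7 of the 9 were also tested between neo and puro cultures. Jchain and Pou2af1 passed the filter on low counts only through their HSPC libraries, which favors calls of lower. No sample was of purified plasma cells, so the list could not be checked in these data. Jchain was at 179 ± 116 normalized CPM in WT HSPCs (SD, n = 4) and at 0 to 0.0753 in MLL-AF9 cells, and was called lower. The MLL-AF9 libraries held 13 Jchain counts in all, and the ratio of summed counts per library size, WT over MLL-AF9, was 4780, with a 95% exact interval of 2800 to 8990. Pou2af1 was at 14.9 ± 5.11 in WT HSPCs and had no count in MLL-AF9 cells. Among the listed genes called higher, the surface ectoenzyme gene Cd38 rose by 4.96 ± 0.78 (adjusted p = 0.000251) and Ell2, an elongation factor gene used in antibody secretion, by 2.23 ± 0.48 (adjusted p = 0.00175) on the log2 scale in edgeR. With the GC offset Cd38 had 3.56 and Ell2 0.82 (adjusted p = 0.00159 and 0.0223), and Ell2 ran from 1.51 against the low-share to 3.41 against the high-share WT libraries. Of 13 B lymphoid genes 11 were tested (only 6 also between neo and puro cultures), 10 were lower and 0 higher, with a median of -3.56. Among them was Ebf1, an early B lineage transcription factor, with 842 counts in WT HSPCs and 18 in MLL-AF9 cells (ratio per library size 98.4, 95% exact interval 61.9 to 167), and their sum was 77.2 to 138 normalized CPM in HSPCs against 6.88 to 38.1. The part of B lymphoid and plasma cells in the HSPC samples in the lower member levels was not tested.

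**Figure D5:**
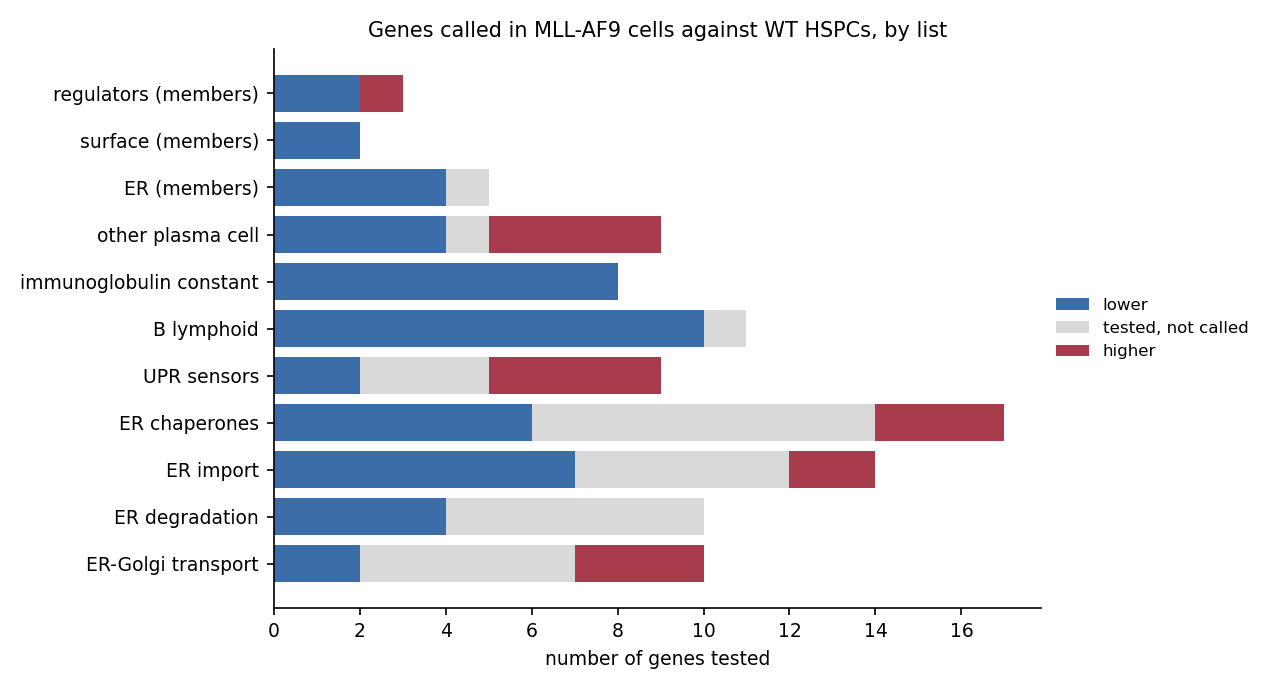
Number of genes tested in each list that were called lower, not called or called higher in MLL-AF9 cells against WT HSPCs (edgeR, adjusted p under 0.05). All 8 immunoglobulin genes tested were lower, but only 1 of them was also tested between neo and puro cultures. The others could pass the filter on low counts only with their HSPC libraries. The same limit holds for Jchain and Pou2af1 in the list of other plasma cell genes. The lists of the unfolded protein response, ER chaperones, ER import and ER to Golgi transport hold genes of both directions. That of ER-associated degradation holds 4 lower and 0 higher genes.

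Of 17 ER chaperone genes 6 were lower and 3 higher (median -0.37, or 0.13 with total counts only), and the counts depended on the reference. They were 6 lower and 7 higher against the high-share WT libraries, 5 and 1 against the low-share WT libraries (median -0.66) and 6 and 1 with the GC offset. Calr, the calcium-binding chaperone calreticulin, fell by 1.6 ± 0.31 and Ppib, cyclophilin B, by 1.80 ± 0.27, while Ero1a, an ER oxidase, rose by 2.96 ± 0.47 on the log2 scale (adjusted p = 0.000948, 0.000181 and 0.000254, edgeR). Ero1a had 1.75 with the GC offset (adjusted p = 0.000483). Dnajb9, a cochaperone of BiP, rose by 1.56 ± 0.49 (adjusted p = 0.0144, edgeR), but had 0.20 (adjusted p = 0.65) with the GC offset and 0.89 (adjusted p = 0.147) against the low-share WT libraries. Of 14 genes of protein import into the ER 7 were lower and 2 higher (median -0.71), or 3 and 2 with total counts only. The translocon subunit Sec61a1 fell by 1.59 ± 0.29 and the signal recognition particle receptor subunit Srprb by 1.63 ± 0.26, while Sec62 rose by 2.23 ± 0.48 and Sec63 by 2.34 ± 0.49 on the log2 scale (adjusted p = 0.000568, 0.000292, 0.00165 and 0.00143, edgeR). With the GC offset Sec61a1 had -0.89, Sec62 1.23 and Sec63 1.58, each still called.

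Of 10 genes of ER-associated degradation 4 were lower and 0 higher in the reported fit, and the counts were 4 and 4 against the high-share WT libraries, 3 and 0 against the low-share WT libraries and 2 and 0 with the GC offset. The ubiquitin ligase gene Syvn1 fell by 1.36 ± 0.22 (adjusted p = 0.000279) and the lectin gene Os9 by 1.23 ± 0.29 (adjusted p = 0.0032, edgeR), and with the GC offset Syvn1 had -0.60 (adjusted p = 0.016) and Os9 was not called (-0.45, adjusted p = 0.0728). Of 9 sensors and effectors of the unfolded protein response 4 were higher and 2 lower (median 0.52). Atf6 rose by 1.72 ± 0.39 and Mbtps2, a protease that releases ATF6, by 2.46 ± 0.40, while Atf6b fell by 1.57 ± 0.30 and Mbtps1, the other ATF6 protease, by 1.08 ± 0.26 on the log2 scale (adjusted p = 0.00231, 0.000298, 0.000861 and 0.00329, edgeR). Mbtps2 had 0.90 and Atf6b -0.60 with the GC offset (adjusted p = 0.0024 and 0.036). Of 10 genes of ER to Golgi transport 3 were higher and 2 lower, with a median of 0.76, or -0.06 with the GC offset. Sec24a, a coat subunit, rose by 2.13 ± 0.35 and the cargo receptor gene Mcfd2 by 1.78 ± 0.29, while the coat genes Sec24c (-0.72 ± 0.23) and Sec23b (-0.65 ± 0.23) were lower (adjusted p = 0.000304, 0.000286, 0.0149 and 0.0274, edgeR). With the GC offset Sec24a had 1.25 (adjusted p = 0.000672), Sec24c was not called (-0.19, adjusted p = 0.361) and Sec23b was at -2.32 (adjusted p = 6.61e-05).

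The ER stress element printed above for Derl3 and Creld2 was also in the windows of 7 of the 15 ER chaperone genes with a window and of Syvn1. Of these 10 genes 4 were lower in MLL-AF9 cells than in WT HSPCs (Derl3, Creld2, Calr and Syvn1), 1 was higher (Hsp90b1, 1.32 ± 0.52, adjusted p = 0.0417, edgeR) and 5 were not called. Among all genes tested 29.4% were lower and 32.8% higher, and the sequences of Derl3 and Creld2 were shown because both were lower. The count is thus no result about genes with the element. Hsp90b1 was not called with the GC offset (0.27, adjusted p = 0.489), against the low-share WT libraries (0.56, adjusted p = 0.256), with puro cultures only (0.82, adjusted p = 0.273), or without WT replicate 3 or 4 or MLL-AF9 replicate 1, 2 or 3 (adjusted p = 0.0835, 0.115, 0.06, 0.0766 and 0.0704). A match of letters is not a bound site.

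Other cell types use some of the 10 genes, so their markers are given here. Of 10 plasmacytoid dendritic cell genes 7 were tested, 4 lower and 3 higher. Siglech, a defining surface receptor of these cells, was at 3.62 ± 1.80 normalized CPM in WT HSPCs (SD, n = 4) and at 0 to 0.0391 in MLL-AF9 cells, whereas Runx2 and Tcf4 rose by 3.36 ± 0.33 and 2.71 ± 0.42 on the log2 scale (adjusted p = 9.67e-06 and 0.00023, edgeR). Tcf4 had 1.23 with the GC offset (adjusted p = 0.00644). Siglech passed the filter on low counts only through its HSPC libraries. All 9 eosinophil, basophil and mast cell genes were lower (7 against the high-share WT libraries alone or with total counts only), and their sum was 466 to 698 in HSPCs against 8.11 to 24.6 normalized CPM in MLL-AF9 cells. Of 9 neutrophil granule genes 4 were lower and 0 higher, and of 8 monocyte and macrophage genes 5 were lower and 2 higher. Against the low-share WT libraries those counts were 2 and 0, and 4 and 0. All 8 erythroid and all 8 T and NK cell genes were lower, as were 5 of 7 stroma and endothelium genes. Between neo and puro cultures only 6 eosinophil, basophil and mast cell, 3 erythroid, 2 T and NK cell and 3 stroma and endothelium genes were tested. Of the plasmacytoid dendritic cell genes 6 were tested there, of the monocyte and macrophage genes 7 and of the progenitor genes 7. The others on these lists could pass the filter on low counts only with their HSPC libraries. Of 8 progenitor genes 6 were lower and 1 higher, among them Cd34 (-5.44 ± 0.70, adjusted p = 6.93e-05) and Meis1 (4.55 ± 0.71, adjusted p = 0.000237, edgeR), which with the GC offset had -6.81 and 3.26. The part of these cell types in the differences of the 10 genes was not tested.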

How the data were processed

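The deposited values are raw counts of reads assigned to each gene, not normalized. Total RNA reads were mapped by the authors to GRCm38 with STAR 2.5.3e and counted with featureCounts 1.6.0 on GENCODE M15, without stating the strand setting. The 2 deposited tables held the same number in all 735700 shared cells, and 10 columns of another series were not used. Of 12187 genes with no base outside the span of other genes of the table, 12106 were at 0 in all 14 libraries, so a 0 in such a gene was not read as its level. Positions, lengths and GC content are from GENCODE M21 on GRCm38 (52403 of 52550 genes), promoter windows from RefSeq GRCm38.p6.

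Each comparison used only its own groups in edgeR 4.0.16 (limma 3.58.1, R 4.3.3), by the quasi-likelihood F test after TMM scaling with robust dispersion estimates. A gene was tested where the number of samples with 10 or more counts reached the size of the smaller group, and an adjusted p under 0.05 over all genes was a call. The SE was taken as the log2 fold change over the root of the F statistic. Log2 CPM used a prior count of 2. Other settings were DESeq2 1.42.0, RLE factors, total counts, no filter, all 14 samples in 1 fit, a replicate block, Gm26917 left out, a GC content offset (spline, 5 degrees of freedom per sample), single vectors, HSPC libraries under or over 25% on Gm26917, that class as a covariate, MLL-AF9 replicates 4 and 6 summed, and each replicate left out. On simulated data with 200 genes changed by 2 on the log2 scale, 200 were recovered in the MLL-AF9 against WT comparison (17077 genes). The simulation used the same dispersion for all genes, changed only well-counted genes and held no low-share and high-share libraries. It checks the code and does not give the power for low genes or for the spread of these libraries.

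The 10 genes and all lists were chosen with earlier results of these data known. By rule, the 10 genes were given in every sample, and other list genes were named only from the 2 called genes with the largest fold change in each direction, besides Gm26917, Jchain, Ighm and Igkc where a result turned on them. Genes most like a member were named from the 3 with the highest r. Hsp90b1, its values under other settings and genes listed at 0 were taken up after values were seen. Total counts of 35016668 to 45877994 put the level of 3 counts at 0.0544 to 0.129 normalized CPM, and intervals cover counting error only.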

Additional observations from a re-analysis of the deposited data

Results flagged for a closer look

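Values that stood far from the rest of their group were sought among the 30 combinations of 10 genes and 3 groups, where chance alone flags about 1 in 20, and 2 were found (Dixon's test at the 95% level). Txndc5 was at 98.5 normalized CPM in MLL-AF9 replicate 5, a puro culture, while the other 5 cultures lay between 5.03 and 37.3. Mzb1 was at 0.141 normalized CPM in MLL-AF9 replicate 4, also a puro culture, while the others lay between 0.0197 and 0.0391. That value rests on 7 counts, against 1 or 2 in each of the other cultures.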

How the results depend on the processing

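For MLL-AF9 cells against WT HSPCs 6 to 10 of the 10 genes were called over 24 other settings, and against Mir139KO HSPCs 8 to 10. Leaving out 1 replicate gave 8 to 10 and 8 to 9, and no gene changed sign in either comparison. Between Mir139KO and WT HSPCs 0 were called under each setting, also without any 1 replicate (0 to 0). Between puro and neo cultures 0 were called, against 2 with DESeq2 and 1 each with all 14 samples in 1 fit, with the replicate block and with the block and GC offset, and 0 to 0 without any 1 replicate. The count over all genes there was 144, but 1326 with DESeq2, 761 with all 14 samples, 273 with the block and GC offset, 221 without a filter, 5 with replicates 4 and 6 summed, and 0 to 990 without 1 replicate (41, 0, 0, 5, 990 and 3 without replicates 1 to 6). Between Mir139KO and WT HSPCs it was 0, and 1 within either share class alone. The replicate numbers were not taken to pair samples. Deviations of same-numbered samples correlated at -0.776 to 0.854 between Mir139KO and WT HSPCs and 2 of 8 samples were closest to their own number (1 of 8 for MLL-AF9 and WT, 5 of 8 for MLL-AF9 and Mir139KO, 2 of 6 for vectors). With the replicate block 8 genes were called against WT and 8 against Mir139KO HSPCs. The block ended the calls on Xbp1 against WT (0.63, adjusted p = 0.192) and Fkbp11 against Mir139KO HSPCs (0.77, adjusted p = 0.0752), and between vectors it called Txndc5 (2.38, adjusted p = 0.024, and 2.33, adjusted p = 0.0207, with the GC offset).

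Small differences between Mir139KO and WT HSPCs changed sign. Prdm1 was at 0.04 with the block, 0.08 with the block and GC offset, 0.13 in high-share libraries and -0.27 to 0.08 without 1 replicate. Fkbp11 was at 0.0009 with RLE factors, 0.001 with DESeq2, 0.003 with all 14 samples, 0.04 with the block, 0.05 with the share class, 0.27 in low-share libraries and -0.26 to 0.24 without 1 replicate. Creld2 was at -0.02 with total counts, -0.001 with the GC offset and -0.07 to 0.18 without 1 replicate. Txndc5 was at -0.01 in high-share libraries and -0.03 to 0.35 without 1 replicate, and Irf4 at -0.04 to 0.39. Between vectors Fkbp11 was at 0.01 with replicates 4 and 6 summed and -0.53 to 0.04 without 1 replicate, Irf4 at -0.78 to 0.60 and Derl3 at -0.58 to 0.22. The cause was not tested. With 1 to 8 counts per MLL-AF9 library, the depth limits Mzb1 and Tnfrsf17.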
